A study of Homo sapiens with 8 samples.

Results

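Transcripts of 8 genes were examined, namely the receptor tyrosine kinases FLT3, KIT and CSF1R, the TAM receptors AXL, MERTK and TYRO3, and the ligands FLT3LG and GAS6. They were selected by symbol, as a set proposed with earlier results of these data known. They are 8 of 38551 annotated genes, of which 14724 had 0 counts in all libraries. RNA-sequencing had been performed in MOLM-13, an established human acute myeloid leukemia (AML) cell line with a rearranged KMT2A gene. In 4 libraries the cells had received 100 nM PR-957, also named ONX-0914, for 72 h, and in 4 control libraries the diluent DMSO for 72 h. The compound blocks the immunoproteasome through its catalytic subunit PSMB8, and the comparison asked how its inhibition changes transcription in KMT2A-rearranged cells. All libraries came from a single cell line, and the labels do not say that replicates were separate cultures, so p-values measure the spread between these libraries.

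FLT3, KIT and CSF1R are class III receptor tyrosine kinases. Each dimerises when its ligand binds (FLT3 ligand, stem cell factor, and CSF-1 or IL-34, respectively) and signals through the PI3K, RAS and STAT routes. FLT3 marks early haematopoietic progenitors and is often overexpressed or mutated in AML, KIT marks stem and mast cells, and CSF1R marks monocytes and macrophages. The TAM receptors are activated by GAS6 and by protein S (PROS1), which bridge them to phosphatidylserine on dying cells. They are known for the clearance of dead cells, for damping of innate immune signalling and, in AML, for survival signals.

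In brief, FLT3 was 0.509-fold its DMSO level under PR-957 and AXL 0.264-fold. GAS6 was 1.68-fold and TYRO3 1.63-fold higher. MERTK, CSF1R, FLT3LG and KIT did not pass the main test, which was edgeR over all libraries without covariates. MERTK and CSF1R passed in some of the subsets given with their values. MERTK also passed in some other fits of all libraries, among them limma-voom and a batch term. Of the 8 genes, all 8 passed the filter on low counts, 2 were called lower, 2 higher and 4 neither, where a call is a Benjamini-Hochberg adjusted p under 0.05 in the edgeR quasi-likelihood test over all 13179 genes tested. Among all tested genes 46.6% were called, 23.5% lower and 23.1% higher, so the share of these genes called was close to that of the transcriptome. The median log2 fold change of the 8 genes was 0.11, against 0.0030 over all tested genes.

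The stretch of 250 bases before the annotated start is shown for the 4 genes that were called, so that the composition of the 2 promoters of lower genes can be read beside that of the 2 promoters of higher genes. Sequences are the reference of RefSeq on GRCh38.p14, not reads of these cells, and are written 5′ to 3′ on the strand of the gene. All 8 genes matched an entry. AXL and TYRO3 had 2 annotated starts each, and the start nearest to the outermost exon edge was used. Positions are chr13:28100577-28100826 on the minus strand for FLT3, chr19:41218973-41219222 on the plus strand for AXL, chr15:41558962-41559211 on the plus strand for TYRO3 and chr13:113864077-113864326 on the minus strand for GAS6. Capitals mark matches, on either strand, to GGGCGG (the GC box of SP and KLF factors), GAGGAA (the core of PU.1 and other ETS factors), TGTGGT (the RUNX core), TGANTCA (the AP-1 site) and CACGTG (the E-box of MYC and MAX). No matches overlapped in these windows.
FLT3: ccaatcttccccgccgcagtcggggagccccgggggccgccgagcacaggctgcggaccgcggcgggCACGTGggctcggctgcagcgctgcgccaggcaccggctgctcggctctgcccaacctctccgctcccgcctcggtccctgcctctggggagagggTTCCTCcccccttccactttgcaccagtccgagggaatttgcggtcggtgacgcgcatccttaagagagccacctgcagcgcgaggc
AXL: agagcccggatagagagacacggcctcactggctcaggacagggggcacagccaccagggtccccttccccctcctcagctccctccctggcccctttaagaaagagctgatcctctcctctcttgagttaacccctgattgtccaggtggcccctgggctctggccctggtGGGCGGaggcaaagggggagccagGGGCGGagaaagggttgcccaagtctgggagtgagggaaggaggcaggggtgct
TYRO3: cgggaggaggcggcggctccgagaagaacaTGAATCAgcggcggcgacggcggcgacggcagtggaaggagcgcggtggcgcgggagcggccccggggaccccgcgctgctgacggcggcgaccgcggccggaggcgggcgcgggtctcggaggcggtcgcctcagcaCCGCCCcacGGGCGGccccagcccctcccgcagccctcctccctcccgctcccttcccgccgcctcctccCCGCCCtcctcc
GAS6: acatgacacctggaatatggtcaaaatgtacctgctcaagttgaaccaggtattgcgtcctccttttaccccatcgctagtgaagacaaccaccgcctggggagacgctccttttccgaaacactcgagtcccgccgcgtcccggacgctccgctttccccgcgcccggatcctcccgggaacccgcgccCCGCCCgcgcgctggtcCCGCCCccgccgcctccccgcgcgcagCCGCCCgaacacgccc
FLT3 held no GC box, 1 ETS core and 1 E-box. AXL held 2 GC boxes, GAS6 held 3, and TYRO3 held 3 together with 1 AP-1 site, and none of these windows held the RUNX core. Of 35116 RefSeq windows of the same length, 42.6% held a GC box, 23.6% the ETS core, 11.0% the RUNX core, 6.6% the AP-1 site and 6.3% the E-box. The AXL window had a GC content of 64.4% with 4 CpG dinucleotides, whereas FLT3 had 72.0% with 26, GAS6 66.8% with 31 and TYRO3 80.0% with 39. The median window had 58.0% and 11. These matches describe letters only, and nothing was measured at these windows.

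Total counts per library ran from 16675036 to 23111223 and did not separate the groups (exact permutation p = 0.914, two-sided). Of the defining markers of myeloid and leukemic cells, 8 of 8 were above 1 CPM in every library. The T cell markers CD3E and CD3G and the endothelial marker CLDN5 were at 0 throughout. The T cell marker CD3D held up to 12 counts per library, and the endothelial marker VWF held 35 in DMSO replicate 4. Mean levels with DMSO and PR-957 were 17.1 and 14.6 CPM for the B cell marker PAX5. For the epithelial marker KRT8 they were 15.8 and 7.25 CPM. Summed levels of the 5 fibroblast and stroma markers were 1.44 to 2.60 CPM with DMSO and 1.504 to 3.49 CPM with PR-957. Only COL1A1 of these was tested, and it was not called. The summed myeloid markers were 1519 to 1574 CPM with DMSO and 2333 to 2631 CPM with PR-957, and 4 of these 8 rose, with LYZ and MPO holding most of the gain, while PTPRC, whose gene model has a second placement on an alternate or patch contig, and CD4 fell. The share of mitochondrial counts was 1.94 to 2.75% with DMSO and 4.15 to 5.24% with PR-957, and that of ribosomal protein genes 17.8 to 19.1% and 13.7 to 15.5% (each exact permutation p = 0.0286, two-sided, the smallest this design allows, and 0.0429 adjusted over 3 measures). These measures moved with every treatment difference described here, and their part in it was not tested. On the second principal component of log2 CPM (13.5% of the variance), replicates 1 and 2 lay above replicates 3 and 4 in both groups. With DMSO the split was uneven, as replicate 3 (-2.02) lay nearer to replicate 1 (12.4) than to replicate 4 (-27.8). The labels name no batch, but values are therefore also given within each of these 2 pairs of replicates. These pairs were chosen with earlier results of these data known. P-values within them are therefore no separate support for a change of any gene.

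FLT3, the receptor with the highest level per length, is on chromosome 13 (hg38, 28003274 to 28100587, minus strand). Its level, in TMM-scaled CPM (counts relative to library size), was 345, 338, 331 and 347 in DMSO replicates 1 to 4. With PR-957 it was 186, 194, 157 and 155. All PR-957 libraries lay below all DMSO libraries, and the DMSO libraries lay closer together. The log2 fold change was -0.98 (SE 0.067, 95% interval -1.12 to -0.84, adjusted p = 1.10e-09, edgeR), a fold of 0.509 with an interval of 0.461 to 0.561. Between 2761 and 7951 counts per library stood behind these values. FLT3 fell in both pairs, by 0.85 on the log2 scale in replicates 1 and 2 (adjusted p = 7.62e-16) and by 1.12 in replicates 3 and 4 (adjusted p = 2.42e-08), and it was called under each of 19 alternatives. Its absolute change was larger than that of 94.3% of tested genes. As in any bulk sample, fewer cells with the transcript and less transcript per cell cannot be told apart, and counts per gene do not separate alleles or isoforms.

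CSF1R, the receptor of monocytes and macrophages, is on chromosome 5 (150053291 to 150113372, minus strand). It measured 3.38, 3.79, 4.77 and 7.47 CPM with DMSO and 6.24, 6.84, 5.98 and 5.85 CPM with PR-957. DMSO replicate 4 was above every PR-957 library, whereas the other 3 DMSO libraries were below them all. With all libraries the log2 fold change was 0.34 (SE 0.20, 95% interval -0.08 to 0.76, adjusted p = 0.176, edgeR). Without DMSO replicate 4 it was 0.64 (adjusted p = 0.00234). In replicates 1 and 2 the gene was higher by 0.86 (adjusted p = 0.000563), and in replicates 3 and 4 the difference was -0.07 (adjusted p = 0.836). The 2 pairs therefore gave different answers for CSF1R, and whether they differed was not tested.

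KIT, the receptor of stem cell factor, on chromosome 4 (54657928 to 54740715, plus strand), was near the limit of detection. Its raw counts were 11, 4, 11 and 23 with DMSO and 3, 6, 7 and 14 with PR-957, and the groups overlapped. The ratio of the summed counts, scaled by library size, was 0.585 (95% interval 0.359 to 0.940, counting error only). When the spread between libraries was included, the log2 fold change was -0.74 (SE 0.48, 95% interval -1.74 to 0.27, adjusted p = 0.221, edgeR), so that no difference was detectable at this depth. Replicate 4 was the highest library in each group, and KIT moved most when one of these was left out, to -0.40 without DMSO replicate 4 (adjusted p = 0.564) and to -1.27 without PR-957 replicate 4 (adjusted p = 0.0581).

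**Figure D1:**
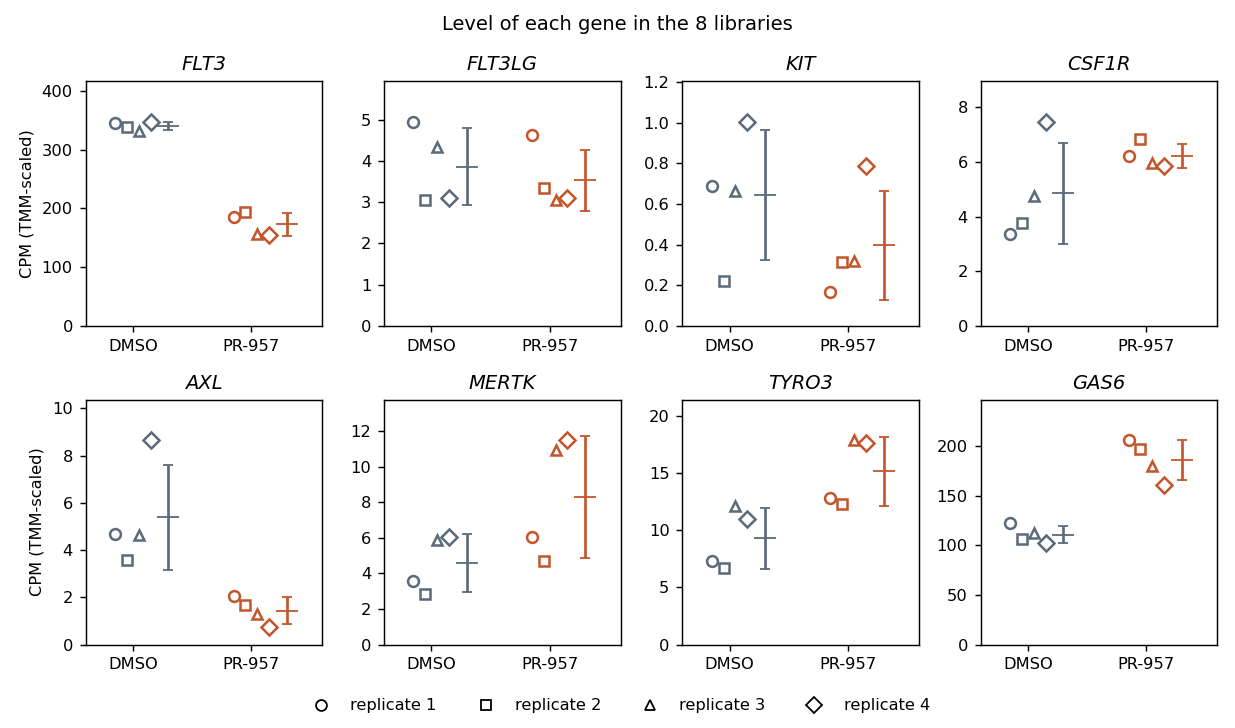
Level of each of the 8 genes in TMM-scaled CPM (linear axes from 0) in the 4 DMSO and 4 PR-957 libraries. Symbols mark the replicate number and the bar beside them the mean ± SD. FLT3 and AXL lay lower and GAS6 and TYRO3 higher under PR-957 without overlap of the groups, and the other 4 genes overlapped.

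Among the TAM receptors, AXL, a receptor studied for its part in drug resistance and immune evasion of tumours, had the largest change of the 8 genes. It is on chromosome 19 (41219223 to 41261767, plus strand). Its level was 4.70, 3.56, 4.65 and 8.65 CPM with DMSO and 2.06, 1.67, 1.28 and 0.731 CPM with PR-957. DMSO replicate 4 was the highest and PR-957 replicate 4 the lowest, and the groups did not overlap. The log2 fold change was -1.92 (SE 0.32, 95% interval -2.60 to -1.23, adjusted p = 0.000237, edgeR), larger in size than that of 99.2% of tested genes. The counts behind it were low, 64 to 198 per DMSO library and 13 to 37 per PR-957 library. AXL fell by 1.14 on the log2 scale in replicates 1 and 2 (95% interval -1.68 to -0.60, adjusted p = 0.000619) and fell by 2.72 in replicates 3 and 4 (95% interval -3.51 to -1.92, adjusted p = 0.000141). These intervals do not overlap, and the difference between the pairs was not tested. The call held under each of 19 alternatives, and leaving out 1 library at a time gave log2 fold changes of -2.14 to -1.58.

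TYRO3, the TAM receptor best known from the nervous system, is on chromosome 15 (41559212 to 41583589, plus strand). It measured 7.27, 6.68, 12.1 and 11.0 CPM with DMSO and 12.8, 12.3, 17.9 and 17.7 CPM with PR-957. Replicates 3 and 4 were higher than replicates 1 and 2 in both groups, and the lowest PR-957 library was just above the highest DMSO library. TYRO3 rose with a log2 fold change of 0.70 (SE 0.21, 95% interval 0.23 to 1.18, adjusted p = 0.0202, edgeR). The call was lost without PR-957 replicate 4 (log2 fold change 0.62, adjusted p = 0.0558, edgeR). Within pairs the log2 fold change was 0.85 in replicates 1 and 2 (adjusted p = 8.43e-06) and 0.62 in replicates 3 and 4 (adjusted p = 0.00206, edgeR). As the pairs were chosen with earlier results of these data known, these p-values do not offset the lost call. Its pseudogene TYRO3P held 0 to 3 counts per library.

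MERTK, the TAM receptor of macrophages that clear dead cells, is on chromosome 2 (111898607 to 112029561, plus strand). Its levels were 3.57, 2.84, 5.86 and 6.03 CPM with DMSO and 6.02, 4.70, 10.9 and 11.5 CPM with PR-957. As for TYRO3, replicates 3 and 4 were the higher ones in both groups, and the 2 lower PR-957 libraries lay within the range of DMSO. Over all libraries the log2 fold change was 0.85 (SE 0.37, 95% interval -0.02 to 1.71, adjusted p = 0.0989, edgeR), which did not pass the threshold. Within pairs it was 0.74 (adjusted p = 0.00659) in replicates 1 and 2 and 0.91 (adjusted p = 0.000567) in replicates 3 and 4, and with the pairs as a batch term it was 0.84 (adjusted p = 1.13e-05). Within each pair MERTK was higher under PR-957, while DMSO replicates 3 and 4 lay at about the level of PR-957 replicate 1. The pairs were chosen with earlier results of these data known. The within-pair and batch-term p-values are therefore no separate support for a change of MERTK. Without PR-957 replicate 2 it also passed over all remaining libraries (log2 fold change 1.04, adjusted p = 0.0201). Within replicates 1 and 2, 40.4% of all tested genes were called, and within replicates 3 and 4, 34.6%.

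**Figure D2:**
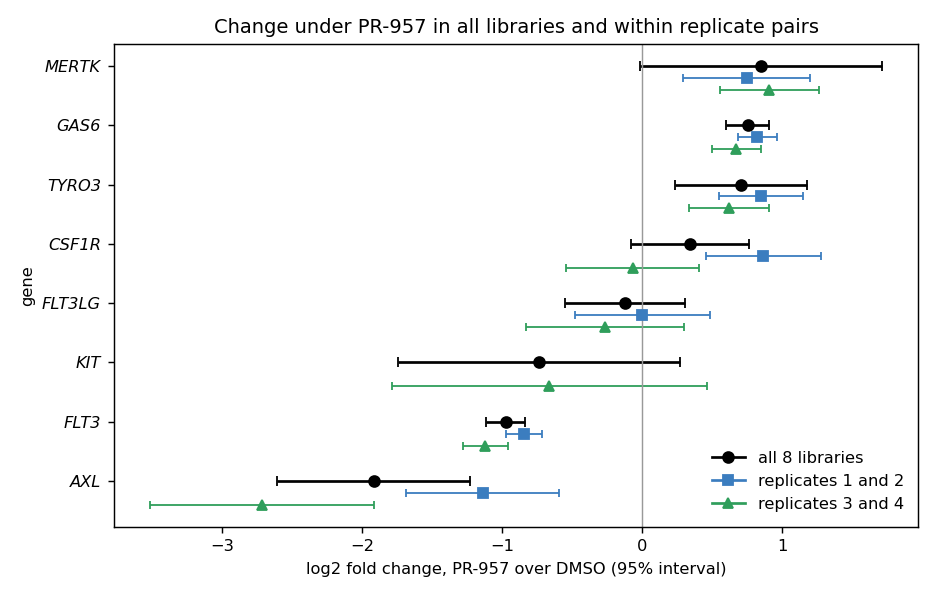
Log2 fold change of PR-957 over DMSO (horizontal axis) for each gene, with 95% intervals from edgeR, over all 8 libraries (circles), replicates 1 and 2 (squares) and replicates 3 and 4 (triangles). FLT3, AXL, GAS6, TYRO3 and MERTK each lay on the same side of 0 in all 3 fits. The interval of MERTK excluded 0 only within the pairs, and CSF1R differed between the pairs. KIT could not be tested in replicates 1 and 2.

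Read per length, AXL, MERTK and TYRO3 made up similar shares of the TAM receptor transcripts with DMSO, and AXL a small one with PR-957. The length is all annotated exon bases, 4876 for AXL, 3826 for MERTK and 10425 for TYRO3, and the shares depend on it. In CPM not divided by length, TYRO3 had the highest mean of the 3 with DMSO (9.27, against 5.39 for AXL and 4.57 for MERTK). AXL accounted for 37.1, 34.6, 26.1 and 40.3% of the 3 receptors' summed CPM per kilobase of exon in DMSO replicates 1 to 4. In PR-957 replicates 1 to 4 it accounted for 13.1, 12.5, 5.43 and 3.10%. The mean share went from 34.5 ± 6.06% to 8.53 ± 5.02% (SD, n = 4) for AXL, from 37.2 ± 3.19% to 53.6 ± 8.21% for MERTK and from 28.3 ± 3.55% to 37.9 ± 3.59% for TYRO3. The ratio of AXL to MERTK per length was 0.623 to 1.13 with DMSO and 0.050 to 0.279 with PR-957. The summed level of the 3 receptors was 3.19 ± 1.03 and 3.91 ± 1.09 CPM per kilobase (SD, n = 4), which overlapped. These shares are a description of the values tested above and were not tested themselves.

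**Figure D3:**
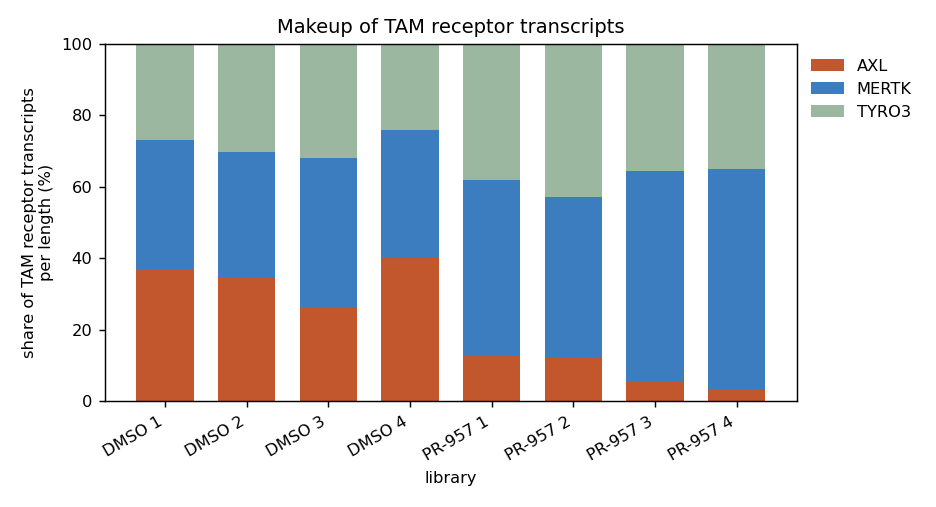
Share of AXL, MERTK and TYRO3 in the summed TAM receptor level per length (percent, stacked to 100), for each of the 8 libraries. AXL was between 26.1 and 40.3% in the DMSO libraries and between 3.10 and 13.1% in the PR-957 libraries.

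GAS6, the vitamin K-dependent ligand of the TAM receptors, is on chromosome 13 (113820549 to 113864076, minus strand). Its level was 122, 106, 112 and 102 CPM with DMSO and 206, 197, 180 and 161 CPM with PR-957. Every PR-957 library was above every DMSO library. GAS6 rose with a log2 fold change of 0.75 (SE 0.074, 95% interval 0.60 to 0.91, adjusted p = 3.17e-07, edgeR), a fold of 1.68 with an interval of 1.51 to 1.87. The change was 0.82 in replicates 1 and 2 (adjusted p = 9.37e-14) and 0.67 in replicates 3 and 4 (adjusted p = 1.63e-05), and it was called under each of 19 alternatives. The antisense gene GAS6-AS1 shares 115 exon bases, or 4.59%, with GAS6 on the opposite strand. Counting was set to the reverse strand, and GAS6-AS1 held 7 to 18 counts per DMSO library and 11 to 26 per PR-957 library, against 1860 to 3950 for GAS6. FLT3, GAS6, AXL and TYRO3 were the 4 of 8 genes whose groups did not overlap, against 42.5% of all tested genes. FLT3 and AXL lay below DMSO, as 21.7% of tested genes did, and GAS6 and TYRO3 above it, as 20.8% did.

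FLT3LG, the ligand of FLT3, is on chromosome 19 (49474172 to 49487037, plus strand). It measured 4.95, 3.06, 4.35 and 3.10 CPM with DMSO and 4.62, 3.34, 3.06 and 3.09 CPM with PR-957. The ranges overlapped nearly in full. The log2 fold change was -0.12 (SE 0.20, 95% interval -0.55 to 0.30, adjusted p = 0.644, edgeR), and on the linear scale the interval ran from 0.682-fold to 1.23-fold.

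On the scale of CPM per kilobase of exon, which allows genes to be compared, FLT3 and GAS6 stood far above the other 6 genes. The length is all annotated exon bases, so the order of genes close in level, TYRO3 (10425 bases) among them, depends on the annotation. With DMSO the mean level was 81.3 ± 1.73 for FLT3 and 44.2 ± 3.45 for GAS6 (SD, n = 4), above those of 94.9% and 90.6% of tested genes. FLT3LG (1.63 ± 0.394), MERTK (1.195 ± 0.421), CSF1R (1.13 ± 0.430), AXL (1.11 ± 0.458) and TYRO3 (0.889 ± 0.259) followed, each overlapping the next in this order, and KIT was lowest with 0.125 ± 0.062. With PR-957 the first 2 genes changed places, with 74.2 ± 7.86 for GAS6 and 41.4 ± 4.72 for FLT3, and their ranges did not overlap. The ratio of GAS6 to FLT3 per length was 0.591, 0.525, 0.566 and 0.491 in DMSO replicates 1 to 4 and 1.85, 1.69, 1.91 and 1.73 in PR-957 replicates 1 to 4. MERTK (2.16 ± 0.894), FLT3LG (1.48 ± 0.311), CSF1R (1.46 ± 0.103) and TYRO3 (1.45 ± 0.290) overlapped one another in order, and AXL (0.294 ± 0.116) had moved down to the range next to KIT (0.077 ± 0.052). Within the class III receptors, FLT3 made up 98.5 ± 0.548% of the summed level per length with DMSO and 96.4 ± 0.303% with PR-957, so that the sum followed FLT3, from 82.6 ± 1.97 to 42.9 ± 4.78.

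**Figure D4:**
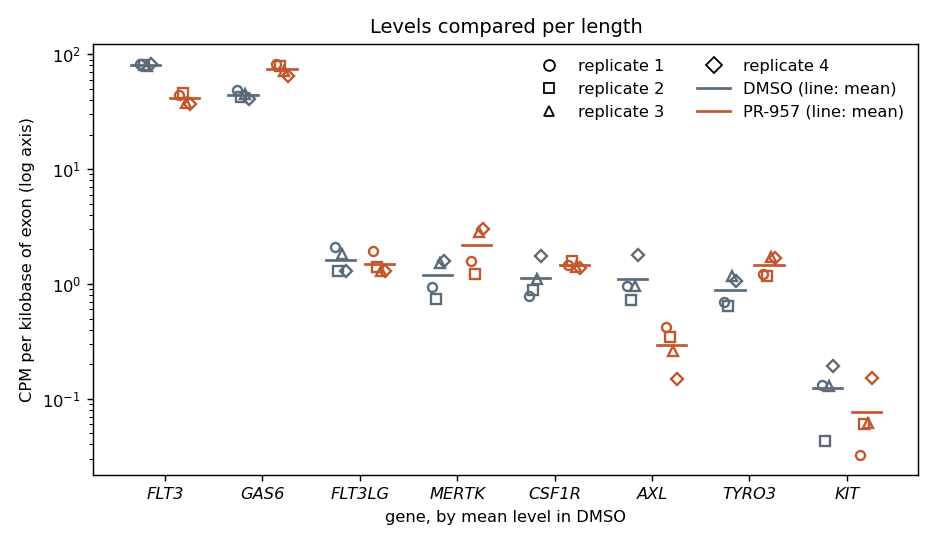
Level of each gene in CPM per kilobase of exon (logarithmic vertical axis) in each library, ordered by the mean with DMSO. Horizontal lines are group means. FLT3 lay above GAS6 in the DMSO libraries and below it in the PR-957 libraries.

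Genes of the same pathways were counted in 5 lists that were written by function. Of 10 related receptors and ligands, 4 were tested, of which 1 was higher and 2 lower (median log2 fold change -0.12). This is 75% of only 4 genes, against 46.6% of all tested genes, 23.1% higher and 23.5% lower. KITLG, which encodes the KIT ligand stem cell factor, rose by 0.77 (SE 0.18, adjusted p = 0.00189, edgeR) at a low level of 2.05 to 2.93 CPM with DMSO and 3.71 to 4.49 CPM with PR-957. PDGFA fell by 0.89 and PDGFC fell by 0.46 on the log2 scale, both ligands of PDGF receptors. PROS1, the other TAM ligand, had 10.7 to 11.9 CPM with DMSO and 12.8 to 14.2 CPM with PR-957 (log2 fold change 0.23, adjusted p = 0.0535, edgeR), which missed the threshold although the groups did not overlap. The CSF1R ligands CSF1 and IL34 were too low to be tested, with at most 21 and 2 counts per library. The higher count was 2 without DMSO replicate 4, and the lower count was 1 without DMSO replicate 2, PR-957 replicate 1 or PR-957 replicate 4.

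Of 6 genes for ligand maturation and receptor shedding, 1 was higher and 1 lower (median -0.07). The share called was 33.3%, against 46.6% of all tested genes. VKORC1, which recycles the vitamin K that gamma-carboxylation of GAS6 needs, rose by 0.30 on the log2 scale (SE 0.065, adjusted p = 0.00102, edgeR). ADAM10, a protease that sheds AXL from the cell surface, fell by 0.15 (SE 0.057, adjusted p = 0.0371, edgeR), a call that was lost under 9 of its alternatives, among them leaving out DMSO replicate 3 or 4 or PR-957 replicate 1, 2 or 3, each of which left 0 genes lower. The carboxylase GGCX was not called.

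Of 27 genes for receptor-proximal signalling, 5 were higher, 11 lower and 11 not called (median -0.09). The scaffold adaptors GAB2 and GAB1 changed in opposite directions. GAB2 fell by 1.08 on the log2 scale, from 88.1 to 99.9 CPM with DMSO to 40.6 to 51.7 CPM with PR-957 (SE 0.070, adjusted p = 4.35e-10, edgeR). GAB1 rose by 1.11 but was low, with 0.780 to 1.83 and 1.73 to 3.94 CPM and overlapping groups (adjusted p = 0.0034, edgeR). The phospholipase PLCG1 rose by 0.61. Of the tested genes in this list 59.3% were called, against 46.6% of all tested genes.

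Of 13 negative regulators, 12 were tested, of which 2 were higher and 5 lower (median -0.13). Calls covered 58.3% of the 12, against 46.6% of all tested genes. The ubiquitin ligase CBLB fell by 0.69 on the log2 scale, and the adaptors DOK2 and SLA rose by 0.24 and 0.18. INPP5D, which was not tested, has a gene model with a second placement on an alternate or patch contig. Leaving out any library other than DMSO replicate 4 left 1 gene of this list higher.

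Of 17 genes for the recognition of phosphatidylserine and engulfment, 12 were tested, with 5 higher and 2 lower (median 0.10). Here too 58.3% of the 12 were called, against 46.6% of all tested genes. CD36, a scavenger receptor, rose by 1.68 on the log2 scale, from 2.38 to 4.63 CPM with DMSO to 10.3 to 11.6 CPM with PR-957 (SE 0.16, adjusted p = 1.03e-07, edgeR). MFGE8, a bridging protein to phosphatidylserine, rose by 1.10 with overlapping groups (adjusted p = 0.0417, edgeR), while the integrin ITGAV fell by 0.34 and the RAC activator DOCK2 by 0.29. The higher count of 5 was 2 without DMSO replicate 2 or PR-957 replicate 3 and 3 without DMSO replicate 1, PR-957 replicate 1 or PR-957 replicate 4.

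**Figure D5:**
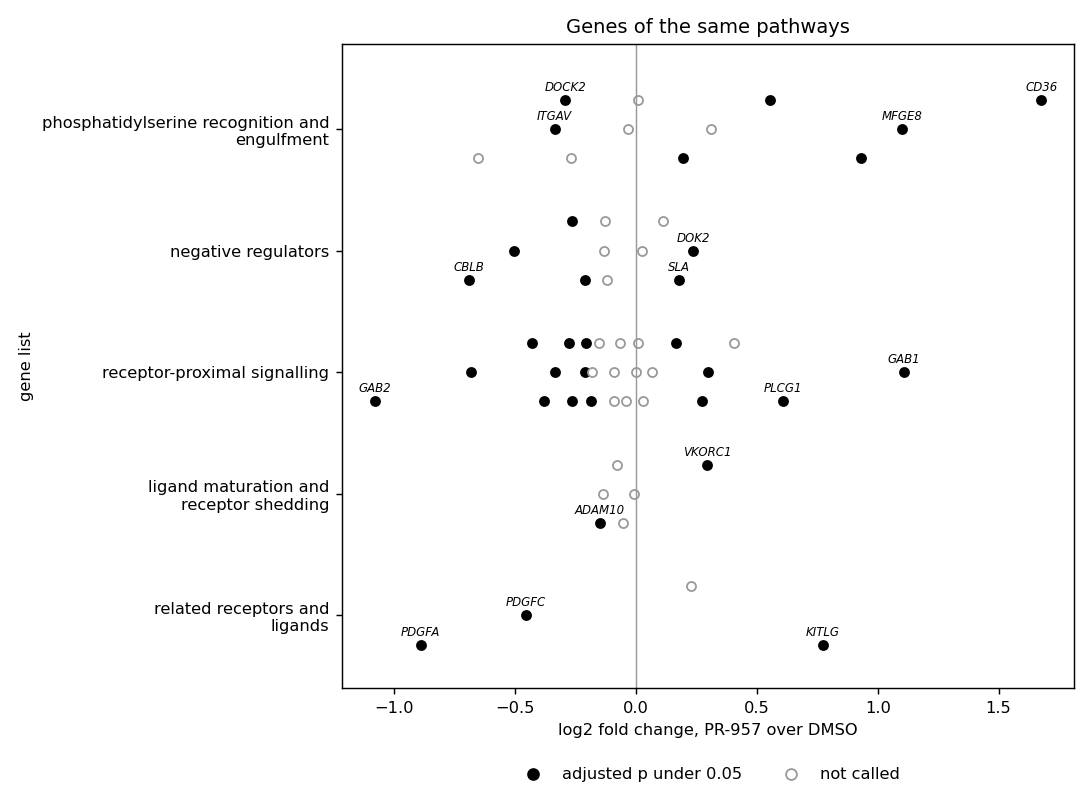
Log2 fold change of PR-957 over DMSO (horizontal axis) for tested genes of the 5 lists whose values are reported (vertical axis; height within a list only separates the points). Filled points passed an adjusted p under 0.05 in edgeR, open points did not, and names mark some of the called genes. GAB2 and GAB1 lay on opposite sides of 0, and CD36 lay farthest to the right.

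The genes whose pattern over the 8 libraries was closest to that of FLT3 were BANK1, TES, ZNF496, CTTN and ZFAND1. The measure was the root mean square difference of gene-centred log2 CPM, which was 0.049 to 0.064 for these genes against a median of 0.517 over 11264 candidates. Their log2 fold changes were -0.98 for BANK1, -0.92 for TES, -0.96 for ZNF496, -0.87 for CTTN and -0.98 for ZFAND1. For AXL the closest were TSC22D3, EEF1A2 and MAML2, with distances of 0.382 to 0.397 against a median of 1.05 and log2 fold changes of -2.11, -1.49 and -1.75. No gene was as near to AXL as the 5 were to FLT3. AXL held only 13 to 198 counts per library, against 2761 to 7951 for FLT3. The part of low counts in these distances was not tested. These likenesses were chosen for their fit over the same libraries and were not tested.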

How the data were processed

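Gene expression was measured by sequencing of polyadenylated RNA from 8 libraries. The authors trimmed reads with Trimmomatic 0.39, aligned them to hg38 with STAR 2.7.10a and, per the file headers, counted fragments with featureCounts 2.0.1 (both ends mapped, reverse strand, NCBI RefSeq models). The deposited values are raw counts per gene, not normalized. The counting command names 16 libraries, of which 8 are in the table and 8 were not analysed here. Rows without values (6) were left out. A deposited DESeq2 comparison by the authors (mean counts, fold changes, standard errors, p-values) was not used.

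Groups came from sample titles. Differences between PR-957 and DMSO were tested in edgeR 4.0.16 (R 4.3.3; glmQLFit and glmQLFTest), two-sided, robust, without covariates, after TMM scaling and filterByExpr (13179 genes holding 99.9% of counts), with Benjamini-Hochberg adjustment over all of them at 0.05. Standard errors were the absolute log2 fold change over the square root of F. Levels per length were TMM-scaled CPM per kilobase of exon, using the length in the table. Library measures were compared by exact permutation tests over splits into 4 and 4. A count of 0 was read as at most 3 counts (0.131 to 0.188 CPM by library), and counting intervals cover counting error only. The lowest chi-square per gene between replicates was 3.19, above the value near 1 of sampling noise, so each library was kept. It was that of DMSO replicates 1 and 3, and the largest values were those with DMSO replicate 4 (9.52 to 14.2).

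Named genes were the 8 members, the 2 largest increases and 2 largest decreases called in each pathway list, the 5 nearest genes to FLT3 and the 3 nearest to AXL (average log2 CPM of at least 1). The values of 2 genes under this rule are not reported here. CSF1, IL34, PROS1, GGCX, INPP5D, GAS6-AS1, TYRO3P and the marker genes were named after their values were seen. The members and lists were chosen with earlier results of these data known, and so were the pairs of replicates 1 and 2 and 3 and 4. Of cell type markers, the 4 T cell genes summed to at most 0.655 CPM, the 4 endothelial genes to at most 1.66 CPM and the 4 erythroid genes to at most 1.64 CPM (KLF1 higher), the 4 B cell genes to 13.9 to 20.2 CPM, nearly all PAX5, and the 4 epithelial genes to 7.41 to 19.4 CPM, nearly all KRT8 (lower). Alternatives were DESeq2 1.42.0, limma-voom (limma 3.58.1), other scalings and filters, a replicate block, a batch term, both replicate pairs and leaving out each library.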

Additional observations from a re-analysis of the deposited data

How the results depend on the processing

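FLT3, AXL and GAS6 kept direction and call under all 19 alternatives tried, and TYRO3 under all but 1. The log2 fold change of MERTK was past the threshold with limma-voom (0.81), without a filter (0.84), with the 2-level batch term (0.84) and in replicates 1 and 2 (0.74) and 3 and 4 (0.91). For CSF1R, replicates 1 and 2 gave 0.86, replicates 3 and 4 gave -0.070, and for FLT3LG replicates 1 and 2 gave 0.00049. Leaving out 1 library gave 0.65 to 1.04 for MERTK (called when PR-957 replicate 2 was absent, adjusted p = 0.0201), 0.57 to 0.85 for TYRO3, 0.20 to 0.64 for CSF1R and -0.28 to 0.013 (without DMSO replicate 1) for FLT3LG. KIT was not past the threshold in any of 17 alternatives (adjusted p 0.0581 to 0.564) and failed the filter in replicates 1 and 2 and at 1 CPM in at least 4 libraries. Members called higher numbered 4 in replicates 1 and 2, where 2664 of 13196 tested genes were higher. They numbered 1 to 3 when 1 library was left out, where 2613 to 3125 of 13315 to 13395 tested genes were higher. The cause of these changes was not tested.

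Same-numbered replicates deviated together (correlations 0.151, 0.213, 0.0985 and 0.198). Each DMSO library was closest to its own number, but PR-957 replicate 3 was closer to DMSO replicate 4, at 0.105. No label says that the numbers pair libraries, and the main fit took no block. The replicate block gave 3513 genes higher and 3400 lower, against 3045 and 3098 without it. It called MERTK (0.84, adjusted p = 1.02e-05, edgeR) and 2 related receptors and ligands higher, and changed no other call among the 8 genes. With the block 52.5% of all tested genes were called, against 46.6% without it. The block takes up the same difference between replicates as the pairs do. Its p-value is therefore no separate support for a change of MERTK.

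Related receptors and ligands called higher numbered 2 with library totals alone, upper-quartile scaling, limma-voom, 1 CPM in at least 4 libraries and the batch term, 0 in replicates 3 and 4, and 1 to 2 without 1 library. Those called lower numbered 1 in each pair and 1 to 2 without 1 library. Maturation and shedding genes called lower numbered 0 with upper-quartile scaling, library totals alone and in each pair, and 0 to 1 without 1 library. Negative regulators called higher numbered 1 with DESeq2 and without a filter, 0 in replicates 3 and 4, and 1 to 2 without 1 library. Engulfment genes called lower numbered 1 with library totals alone and in replicates 1 and 2, and those called higher numbered 2 to 5 without 1 library. Library totals alone moved the median log2 fold change of all genes to 0.08 (4066 higher, 2353 lower) and the FLT3 level per length with DMSO to 79.2. Of 13179 genes, 3087 were higher and 3087 lower with limma-voom, 3190 and 2970 with upper-quartile scaling and 3371 and 3297 with the batch term. Of 12249 genes at 1 CPM in at least 4 libraries, 2993 were higher and 3017 lower. Of 23827 genes, 2876 were higher and 2960 lower with DESeq2, and 3123 and 3194 without a filter. Replicates 1 and 2 gave 2664 higher and 2663 lower of 13196, and replicates 3 and 4 gave 2336 and 2345 of 13520. Low counts limit KIT, which held 3 to 23 counts per library.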
